A study of Mus musculus with 32 samples.

Results

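Size-matched inputs are the background libraries of eCLIP, a method that crosslinks an RNA-binding protein to RNA, cuts the RNA into fragments and recovers those that stay with the protein. Here 10 of the 32 libraries of the series were size-matched inputs, 6 from Lin- cells and 4 from CD11b+ cells, chosen by their sample labels. Together they held 13762 peaks of the authors' peak caller CLIPper. Each peak carried a host gene ID, a number of reads and a p-value of at most 0.05. The study compared mouse cells that expressed the MLL-Af4 fusion with and without *Igf2bp3*, and mapped where the protein IGF2BP3 bound RNA in both cell types.

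According to the study's methods, Lin- cells were lineage-depleted bone marrow cells transduced with an MSCV-MLL-flag-Af4 retrovirus, selected with G418 and grown in culture, so that they were a mass culture under selection and not freshly isolated cells. CD11b+ cells were taken with magnetic beads from spleens with tumors of MLL-Af4 leukemic mice, but the names of the CD11b+ input libraries in the labels start with the letters bm, like those of the Lin- inputs, and the labels do not explain them, so the tissue of these inputs is uncertain. All 10 inputs came from wild-type (WT/MLL-Af4) cells, and no knockout or untreated control was among them. By the labels of the eCLIP library with the same number, Lin- inputs 1 to 3 and CD11b+ inputs 1 and 2 belonged to biological replicates, and Lin- 4 to 6 and CD11b+ 3 and 4 to technical replicates. Which technical library repeats which biological one is not given, so tests used the 3 Lin- and 2 CD11b+ biological libraries, for which no exact p below 0.1 is possible.

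Lin- denotes cells without the surface proteins of mature blood lineages, a population rich in stem and progenitor cells. CD11b is a surface integrin of monocytes, macrophages and granulocytes. The authors' RNA-seq tables were normalized separately for each cell type, and their means cover both wild-type and *Igf2bp3* knockout libraries. In them *Kit*, a progenitor receptor, had a mean normalized count of 1328 per kb of exon in Lin- cells and 128 in CD11b+ cells. *S100a8*, a neutrophil calcium-binding protein, had 4287 and 80963 per kb. *Csf1r*, the receptor for macrophage colony-stimulating factor, had 1619 and 3072 per kb. *Itgam*, which encodes CD11b itself, had only 3.45 per kb in the CD11b+ table and was not among the genes listed for Lin- cells. The median over all genes of the CD11b+ table was 29.96 per kb, so the mRNA of the protein used to select the cells was below it.

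An input library is made from a part of the same sample and cut from a gel at the same size as the eCLIP library, and serves as the background against which eCLIP peaks are judged. Small nucleolar RNAs (snoRNAs) are short, stable, protein-bound RNAs that guide chemical modification of ribosomal RNA (rRNA) or, as for U3, its cleavage. Most vertebrate snoRNAs are cut out of introns of host genes, many of which encode ribosomal proteins or translation factors. Reads of ligated adapters or primers, of repeats and of abundant small RNAs are among the known sources of peaks in libraries of this kind.

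Places with many reads in every input are shown first, because they carry the short words that recurred across libraries. The 4 lines below give 30 bases on the strand of the peak, 5′ to 3′, in the mm10 (GRCm38) build from the RefSeq genome. In the *Cblb* and *Ssbp3* lines, capitals mark the 9-letter word CGTATGTCT. In the *Slc9a9* line they mark GATCGGAAG, and in the line of the site on chromosome 8 the longest run of letters shared with the *Slc9a9* site.
Cblb (chr16:52117331-52117360, + strand): tgtgggcctggCGTATGTCTtagaatgtat
Ssbp3 (chr4:106940064-106940093, + strand): agttggcctgcCGTATGTCTtctgggtagc
Slc9a9 (chr9:94873117-94873146, + strand): gacaaagtgcaGATCGGAAGagcaaccaga
site on chromosome 8 (chr8:47444787-47444816, - strand): agaaactcagttgaagaATCGGAAGAGCAt
The sites lay in genes with no shared function. *Cblb* encodes a ubiquitin ligase of immune cells, *Ssbp3* a single-stranded DNA binding protein and *Slc9a9* an endosomal sodium-proton exchanger. The sites in these 3 genes were intronic. The site on chromosome 8 was intronic in GENCODE M21, but its deposited host ID has no entry there.

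Positions in small RNA genes and in rRNA copies recurred as well, at far lower read numbers. In the next 5 lines capitals mark the bases inside the tallest peak.
Rnu3b4 in Tex14 (chr11:87462338-87462367, + strand): ctgacTGTGTAGAGCACCCGAAACCAcgag
Snora73b in Rcc1 and Snhg3 (chr4:132352365-132352394, - strand): gcctgcatatTCCTACGACTtctcagagtc
Gm42418 (chr17:39848027-39848056, + strand): TGCGTTGATTAAGTCCCTGCCCTTTGTACA
Gm26917 (chr17:39844866-39844895, + strand): CTGTGTCGTTCCCTCCTCCCCGCTCGCCGC
Cdk8 (chr5:146261252-146261281, + strand): AAACCGTTAAGAGGTAAACTGGTGGGGTCC
*Rnu3b4* is a copy of the U3 snoRNA and *Snora73b* an H/ACA box snoRNA. *Gm42418* lies at chr17:39846958-39848788 and overlaps *Rn18s-rs5*, which RefSeq places at chr17:39846354-39848202 as a copy related to the small-subunit rRNA. *Gm26917* lies just before it, at chr17:39843013-39846341. *Cdk8* encodes a kinase of the Mediator complex, and the site shown is in 1 of its introns.

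The number of peaks was 1808, 1379 and 1332 in the biological Lin- libraries, 1215, 217 and 1047 in Lin- 4, 5 and 6, 1665 and 1885 in the biological CD11b+ libraries, and 1381 and 1833 in CD11b+ 3 and 4. Lin- 5 stood apart with the fewest peaks, and results over every Lin- library rest on it. The mean of the biological libraries was 1506 ± 262 (SD, n = 3) in Lin- and 1775 ± 156 (SD, n = 2) in CD11b+, and the groups overlapped (exact two-sided permutation p = 0.3). Total read depth is unknown. The peaks held between 27694 and 893734 reads per library, fewest in Lin- 5. The median peak had 6 to 10 reads and was 13 to 41 nt wide, with the widest in Lin- 4 (41 nt) and Lin- 6 (30 nt).

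Single sites held large shares of the reads in input peaks. The *Cblb* site held 130074, 97759 and 115889 reads in Lin- 1 to 3, 27005, 6912 and 33336 in Lin- 4 to 6, and 94943, 143203, 77568 and 170704 in CD11b+ 1 to 4. The groups overlapped, and Lin- 5 had the fewest reads there. Over the 10 libraries the *Cblb* site summed to 897393 reads, 19.6% of all reads in peaks, and the *Ssbp3* site to 316984 reads (6.94%). The *Slc9a9* site had 15693, 9056 and 12055 reads in Lin- 1 to 3 and 14065 and 35327 in CD11b+ 1 and 2, and these values overlapped.

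The same short words stood at the sites with many reads. Peaks of all inputs were merged into 3618 regions where they overlapped on 1 strand, and every 9-letter word within 20 nt of a region was counted on the strand of the region. The word with the largest ratio to windows of the same length 300 nt upstream, CTTCCGATC, was in 124 regions and 0 upstream windows. The word with the most reads, CGTATGTCT, was in 76 regions (2.10%) and 1 upstream window (0.0276%). GATCGGAAG, the reverse complement of CTTCCGATC and the start of common Illumina adapter sequences, was in 118 regions and 2 upstream windows. These words were picked from the same peaks, so the counts describe them and are no test. In the following, a peak within 20 nt of any of these 3 words is called a 9-mer site.

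The words sat close to the start of the region. The median distance from the region's 5′ end to the start of the word was 1 nt for CGTATGTCT, -1 nt for GATCGGAAG and -7 nt for CTTCCGATC, where a negative value is upstream. Most genomic copies of the words had no peak. Of 3528 copies of CGTATGTCT in the genome, 77 (2.18%) were at an input region, and of 2415 copies of CTTCCGATC 125 (5.18%) were. Copies were counted on both strands of the whole nuclear genome, whereas only 0.498% of all regions were intergenic. The share among copies inside genes was not determined.

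CGTATGTCT sites took between 76.3% (Lin- 6) and 91.5% (Lin- 5) of the reads in peaks, from only 22 to 66 positions per library. GATCGGAAG sites took 3.95%, 3.94% and 4.23% of the reads in Lin- 1, 2 and 3 and 2.19%, 2.77% and 4.12% in Lin- 4, 5 and 6. In CD11b+ 1 to 4 they took 7.24%, 8.89%, 6.94% and 6.97%, so that every CD11b+ library was above every Lin- library. This share was looked at after the words were known and was not tested. CTTCCGATC sites, though the most numerous in Lin- 1 and Lin- 3 with 82 and 99 positions, took at most 0.246% of the reads.

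The share of peaks at 9-mer sites was 12.05%, 14.01% and 17.03% in the biological Lin- libraries and 11.3% and 12.6% in the biological CD11b+ libraries, and the groups overlapped (exact permutation p = 0.3). The share of reads at these sites was 92.7%, 92.7% and 93.0% in Lin- 1 to 3 and 88.7% and 90.3% in CD11b+ 1 and 2. The biological libraries did not overlap (exact permutation p = 0.1, the smallest possible), but Lin- 4 and Lin- 6, with 81.0% and 80.6%, lay below all CD11b+ libraries.

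**Figure D1:**
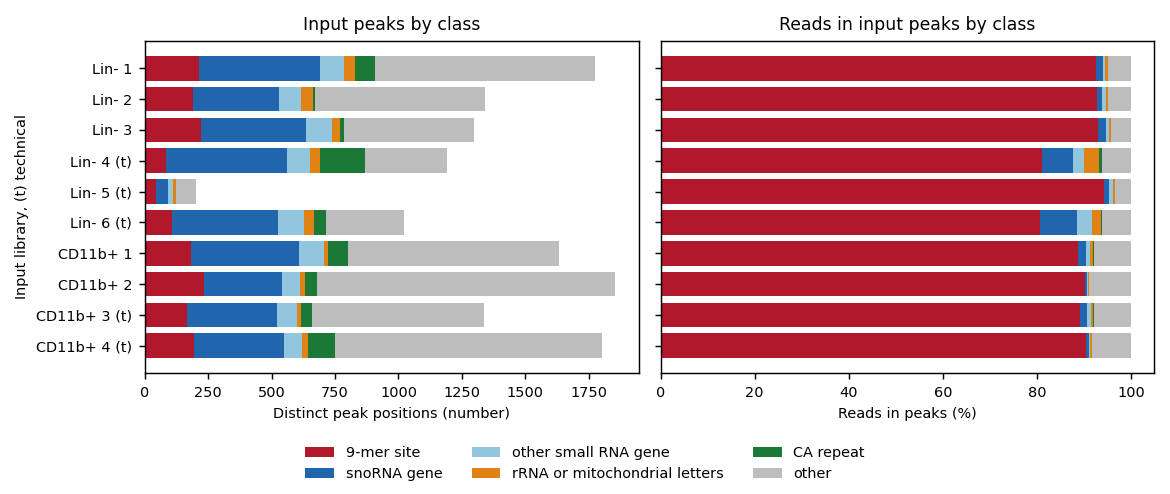
Distinct input peak positions (left, number) and reads in input peaks (right, percent) of each of the 10 input libraries, split by class; (t) marks technical libraries. Peaks at 9-mer sites were a minor share of the positions and 80.6% to 94.3% of the reads, and Lin- 5 had the fewest positions.

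Many other narrow peaks stood at near copies of the words. Of the 2578 regions outside all classes, 329 (12.8%) held a word that differed by 1 letter, against 1.05% of their upstream windows, and these held 59.2% of the class's reads. Of the 120 such regions found in 9 or 10 libraries, 60 (50%) held a near copy. The site on chromosome 8 and the site in *Prps1*, a nucleotide synthesis enzyme, were among these, with 49244 and 34238 reads in all. The site in *Tbcd*, a tubulin chaperone, with 19844 reads in all, shared a run of 10 letters with the *Slc9a9* site. At the chromosome 8 site the reads were 4982, 2063 and 3077 in Lin- 1 to 3, 435, 83 and 522 in Lin- 4 to 6, and 5037, 15931, 4069 and 13045 in CD11b+ 1 to 4. The biological CD11b+ libraries were above the biological Lin- ones, while Lin- 1 was above CD11b+ 3.

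The recurrence of a position across libraries followed its class. Of the 3618 regions, 151 (4.17%) were in all 10 libraries, 345 in 9 or 10, and 1779 (49.2%) in a single library. Of the regions in snoRNA genes, 79.2% (232 of 293) were found in both cell types, and of the 9-mer sites 72.0% (229 of 318). For other small RNA genes this was 56.4% (62 of 110). It was 25.3% (651 of 2578) for the regions outside all classes and 22.4% (62 of 277) for CA repeats, against 34.4% of all regions. Among the 345 regions in 9 or 10 libraries, 120 (34.8%) were in snoRNA genes, 69 (20%) were 9-mer sites and 120 (34.8%) were outside all classes, against 8.10%, 8.79% and 71.3% of all regions.

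Of the 151 regions in all libraries, 39 had a median p-value of 0. Ordered by reads, those in *Cblb*, *Ssbp3* and *Slc9a9*, the chromosome 8 site, and those in *Prps1*, *Kcnh5*, a potassium channel, and *Lrrc4c*, a synaptic adhesion protein, were among the first of these. All 7 were 9-mer sites or near copies. *Lrrc4c* had 7146, 2334 and 2997 reads in the biological Lin- libraries and 1356 and 6030 in the biological CD11b+ libraries, and these groups overlapped.

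**Figure D2:**
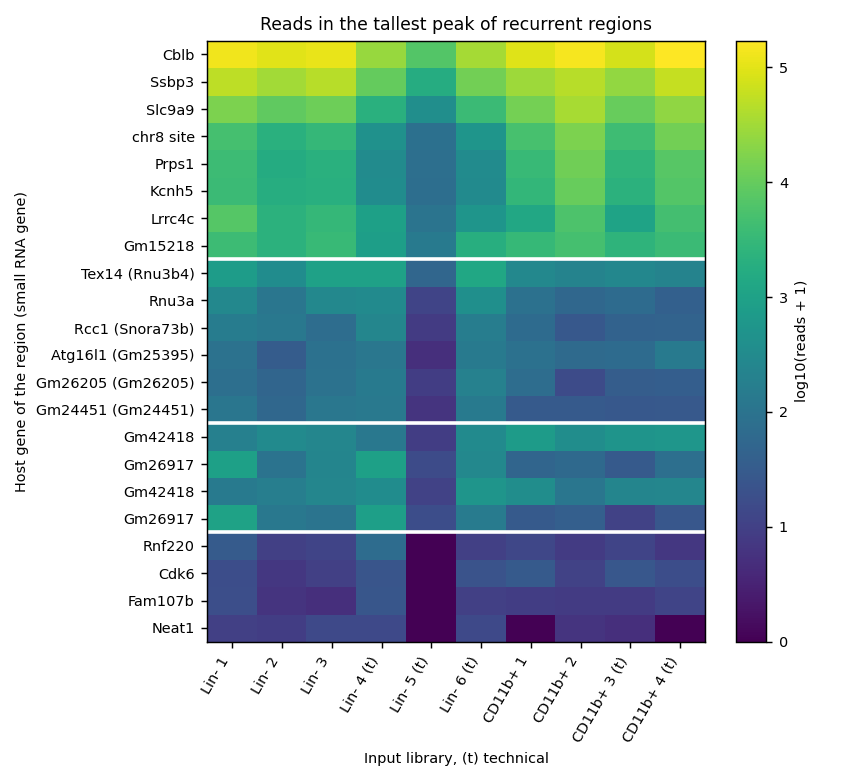
Reads in the tallest peak, as log10(reads + 1), of recurrent regions (vertical axis: host gene, with the small RNA gene in parentheses) in each of the 10 input libraries (horizontal axis); white lines separate sites with many reads, snoRNA genes, rRNA copies and CA repeats. The *Cblb* site, with 6912 reads or more, is the brightest of those shown in every library, and the 2 *Gm26917* regions are brightest in Lin- 1 and Lin- 4.

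Input peaks of 1 library were largely found again in others, and for CD11b+ peaks more so within the cell type. On average 65.7% of the peaks of a biological library overlapped a peak of another biological library of the same cell type and 60.7% a peak of one of the other cell type. The difference of 5.0 percentage points was at the smallest p possible (exact permutation p = 0.1), and it was 2.88 without CD11b+ 2 and 8.23 without CD11b+ 1. Over all 10 libraries the values were 64.1% and 58.4% (exact permutation p = 0.00476, technical libraries included, so that this p counts some cells more than once). Among the biological libraries, the medians for CD11b+ peaks were 64.0% in the other CD11b+ and 55.1% in Lin- libraries. For Lin- peaks they were 65.5% in other Lin- libraries (55.2% to 80.6%) and 63.9% in CD11b+ libraries (61.7% to 74.7%). The share also moves with the number of peaks in the library searched, on average higher in CD11b+. Of the Lin- 5 peaks, 99.5% overlapped a Lin- 2 peak, and 87.2% to 90.1% a peak of each other library. CD11b+ 3 was closest to CD11b+ 1 (78.0% of its peaks) and CD11b+ 4 to CD11b+ 2 (70.0%), whereas Lin- 1 was closest to a library of the other cell type, CD11b+ 2 (62.0%).

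**Figure D3:**
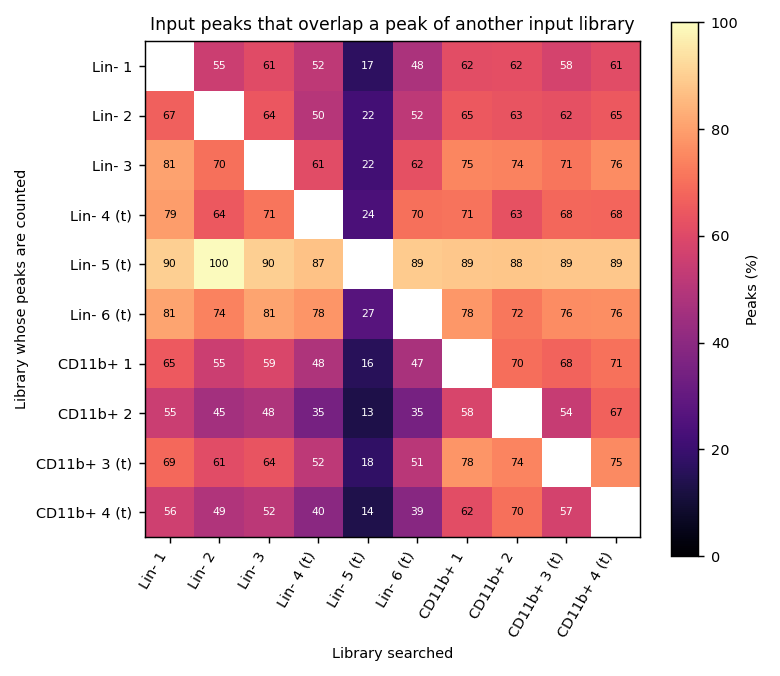
Percent of the input peaks of the library in each row that overlapped a peak of the library in each column by at least 1 nt on the same strand. The Lin- 5 row is the highest and the Lin- 5 column the lowest, as this library had 217 peaks.

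Of all regions, 73.0% were intronic and 71.3% were outside all classes. The 1012 regions seen in Lin- inputs only were close to this, with 70.7% intronic and 71.3% outside all classes. The 1360 regions seen in CD11b+ inputs only were 83.8% intronic and 88.6% outside all classes. In all 4 CD11b+ libraries and no Lin- library stood 50 regions (1.38%), of which 45 were intronic and 47 were outside all classes. The reverse, all 6 Lin- and no CD11b+ library, held for 1 region (0.0276%), which had rRNA letters. With Lin- 5 and its 217 peaks among the 6, these counts are not comparable, and 13 regions were in the 3 biological Lin- libraries and no CD11b+ library.

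Intronic peaks were the most frequent kind in all libraries except Lin- 4 and Lin- 6. There, peaks in exons of noncoding transcripts were more frequent (50.6% and 54.0%). By the midpoint of the peak, 54.2%, 52.8% and 47.4% were intronic in the biological Lin- libraries and 56.5% and 66.2% in the biological CD11b+ libraries. No library overlapped the other group, also among the technical ones, where Lin- ranged from 36.3% to 53.7% and CD11b+ from 55.9% to 63.9%. The means were 51.5% ± 3.6 (SD, n = 3) and 61.3% ± 6.9 (SD, n = 2), 9.86 percentage points apart at the smallest p possible (exact permutation p = 0.1, adjusted p = 0.286 over 20 measures by Benjamini-Hochberg). Leaving out CD11b+ 2 lowered the difference to 5.0 percentage points, and leaving out peaks in small RNA genes to 4.98.

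Exons of noncoding transcripts, which include the snoRNA genes and noncoding transcripts of protein-coding genes, were the counterpart. They held 37.1% ± 4.4 (SD, n = 3) of the peaks in Lin- and 27.6% ± 7.8 (SD, n = 2) in CD11b+ (exact permutation p = 0.1, adjusted p = 0.286). Coding exons held 6.52% ± 0.88 and 6.70% ± 0.29 (p = 0.8, exact permutation test) and 3′UTRs 2.07% ± 0.08 and 2.02% ± 0.35 (p = 1, exact permutation test), which differed by less than the spread between libraries. The sign of these 2 differences changed with the setting. Exons of mature mRNA were a minor place of input peaks in both cell types.

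Peaks in snoRNA genes made up 26.8%, 25.3% and 32.0% of the positions in Lin- 1 to 3, 40%, 22.7% and 40.7% in Lin- 4 to 6, and 26.0%, 16.6%, 26.5% and 19.5% in CD11b+ 1 to 4. The 95% Wilson interval, which covers counting error only, was 24.8% to 28.9% for Lin- 1 and 17.4% to 28.9% for Lin- 5. The groups overlapped (28.1% ± 3.5, SD, n = 3, against 21.3% ± 6.7, SD, n = 2, exact permutation p = 0.3). By reads outside the 9-mer sites, snoRNA genes held 18.7%, 16.9% and 25% in the biological Lin- libraries and 15.5% and 4.42% in the biological CD11b+ libraries. Here every Lin- library was above every CD11b+ library, technical ones included (biological libraries, exact permutation p = 0.1, adjusted p = 0.286). The technical libraries gave 35.5%, 18.1% and 41.3% in Lin- and 15.0% and 7.31% in CD11b+. Within CD11b+ the spread was wide, and the difference of CD11b+ minus Lin- was -10.2 percentage points with CD11b+ 2 and -4.69 without it. Reads outside the 9-mer sites still included near copies of the words, which held 45.2% of the reads in regions without an exact copy. The chromosome 8 site alone had 15931 of the 87034 reads outside 9-mer sites in CD11b+ 2 and 435 of 37571 in Lin- 4. The share without near copies was not computed, so whether the groups stay apart without them is unknown.

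Of the individual snoRNA genes, 25 had an input peak in all 10 libraries. The *Rnu3b4* site in *Tex14* had the most reads, with 765, 353 and 970 in Lin- 1 to 3, 978, 52 and 1333 in Lin- 4 to 6, and 271, 221, 261 and 217 in CD11b+ 1 to 4. *Rnu3a*, another U3 copy, had 282, 112 and 278 reads in the biological Lin- and 87 and 55 in the biological CD11b+ libraries. *Snora73b* had 155, 124 and 72 in the biological Lin- libraries and 65 and 26 in the biological CD11b+ ones. For these 3 genes all biological Lin- libraries were above all biological CD11b+ ones in read number, without regard to depth.

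*Snord118*, the U8 snoRNA of large-subunit rRNA processing, had 66, 44 and 76 reads in Lin- 1 to 3, 43, 10 and 36 in Lin- 4 to 6, and 82, 105, 55 and 36 in CD11b+ 1 to 4. The biological CD11b+ libraries were above the biological Lin- ones, but with the technical libraries the groups overlapped. The scaRNA *Gm25395*, in *Atg16l1*, overlapped between the groups with 94, 33 and 89 against 90 and 62 reads. ScaRNAs are relatives of snoRNAs that guide modification of spliceosomal RNAs in Cajal bodies. The U3 genes together held 4.51%, 3.74% and 8.16% of the reads outside 9-mer sites in Lin- 1 to 3, 10.5%, 6.84% and 14.4% in Lin- 4 to 6, and 2.04%, 0.762%, 2.37% and 0.923% in CD11b+ 1 to 4. All Lin- libraries were above all CD11b+ libraries. These U3 shares have the same denominator as the snoRNA share of reads, so they too depend on the reads at near copies. The biological means, 5.47% ± 2.36 (SD, n = 3) and 1.40% ± 0.90 (SD, n = 2), gave an exact permutation p = 0.2 (adjusted p = 0.4 over 6 measures of the U3 and rRNA genes).

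Midpoints of peaks along snoRNA genes were rare at both ends and most frequent in the middle and the 3′ part. The median peak in these genes was 44 to 60 nt wide per library. A peak that fills much of a short gene has its midpoint away from the ends. The low ends therefore do not show that the ends lack reads, and gene lengths were not compared. Of the midpoints of these peaks, 29.0%, 30.3% and 38.2% lay upstream of the gene's midpoint in Lin- 1 to 3, 38.9%, 23.9% and 43.6% in Lin- 4 to 6, and 45.5%, 39.1%, 42.5% and 42.3% in CD11b+ 1 to 4. U3 peaks differed from this, with 64.3% to 88.9% upstream of the midpoint. For C/D box genes named *Snord* the share was 11.1% to 30.99%, and for H/ACA box genes named *Snora* it was 31.9% to 45.9%.

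**Figure D4:**
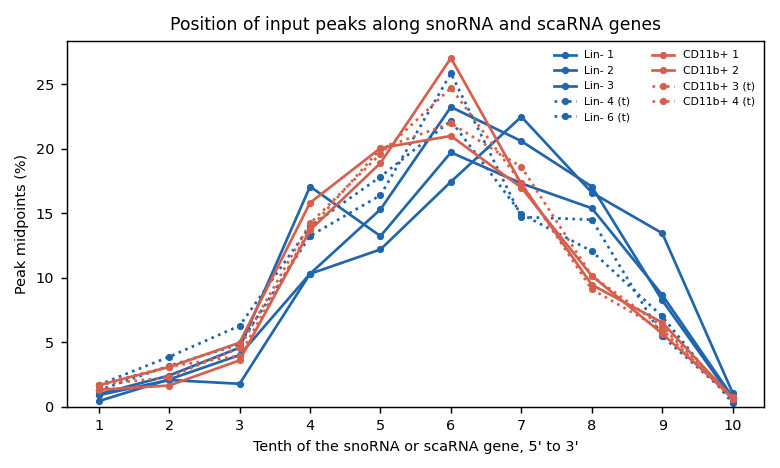
Percent of input peak midpoints in each of 10 equal parts of the snoRNA or scaRNA gene, from the 5′ to the 3′ end, for 9 input libraries (Lin- 5, with 46 such peaks, is left out; dotted lines mark technical libraries). In each of the lines the parts at both ends are lowest and part 6 or 7 is highest.

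The rRNA copy on chromosome 17 was a recurrent place whose 2 genes behaved unequally. *Gm26917* had 3380, 351 and 761 reads in peaks in Lin- 1 to 3, 3950, 37 and 1042 in Lin- 4 to 6, and 139, 149, 95 and 169 in CD11b+ 1 to 4. *Gm42418*, over the small-subunit copy, had 1712, 1819 and 1205 in Lin- 1 to 3, 2405, 85 and 1976 in Lin- 4 to 6, and 1960, 1015, 1340 and 1763 in CD11b+. The number of *Gm26917* reads per *Gm42418* read, which needs no depth, was therefore 0.193 to 1.97 in Lin- and 0.0709 to 0.147 in CD11b+ libraries, with no overlap. The lowest Lin- value was that of Lin- 2, and the biological means of 0.933 ± 0.928 (SD, n = 3) and 0.109 ± 0.054 (SD, n = 2) gave an exact permutation p = 0.2 (adjusted p = 0.4 over the same 6 measures).

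As a share of positions, peaks with letters of this rRNA copy or of the mitochondrial genome were 2.48%, 3.43% and 2.54% in Lin- 1 to 3, 3.28%, 4.93% and 3.82% in Lin- 4 to 6, and 0.980%, 1.08%, 1.05% and 1.33% in CD11b+ 1 to 4. The groups did not overlap (2.82% ± 0.53, SD, n = 3, against 1.03% ± 0.07, SD, n = 2, exact permutation p = 0.1, the smallest possible, adjusted p = 0.286). Over all 10 libraries, technical ones included, the exact permutation p was 0.00476 (adjusted p = 0.0635 over the 20 measures). Of the mitochondrially encoded genes, 0 of 37 had an input peak, although the authors' table gave them a median of 617 normalized counts per kb in Lin- cells.

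Mostly intronic sites in 3 genes, picked for a large difference in this direction, had more peaks in the biological Lin- inputs. *Cdk8* had 20, 10 and 9 peaks in Lin- 1 to 3, 13, 2 and 20 in Lin- 4 to 6 and 3, 3, 4 and 4 in CD11b+ 1 to 4. *Cmss1*, a nucleolar protein gene, had 16, 6 and 16 in Lin- 1 to 3, 12, 1 and 4 in Lin- 4 to 6 and 4, 4, 3 and 6 in CD11b+ 1 to 4. *Peak1*, a pseudokinase gene, had 9, 15 and 8 in Lin- 1 to 3, 12, 3 and 10 in Lin- 4 to 6 and 5, 2, 3 and 4 in CD11b+ 1 to 4. Of the *Peak1* peaks, 21.1% were in small RNA genes. In each of these 3 genes the biological Lin- libraries had more peaks than the biological CD11b+ ones, but with the technical libraries the groups overlapped. The large-subunit rRNA was not among the sequences searched, so whether these sites carry its letters was not tested.

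Some recurrent sites shared their sequence with others, so reads inside a shared run cannot be assigned to 1 locus. *Lars2*, the mitochondrial leucyl-tRNA synthetase, and *Gm15564*, on chromosomes 9 and 16, shared a run of 77 nt in or next to their regions. At *Gm15564* the run extended beyond the region. *Lars2* and *Wdr92* shared 1 of 39 nt. *Gm25890* and *Gm22513*, copies of the U1 spliceosomal RNA on chromosomes 3 and 12, shared 62 nt. Part of the 110 *Tex14* peaks were also listed at the same positions under ENSMUSG00000094480, which had 37 peaks in all. At *Gm15564* the reads were 213, 390 and 536 in Lin- 1 to 3 and 917 and 466 in CD11b+ 1 and 2, and the groups overlapped.

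CA repeats recurred little. They were 8.77% of the regions of a single library, near their 7.66% of all regions, and 0.870% of those in 9 or 10 libraries. ACACACACA was in 278 regions (7.68%), against 43 upstream windows (1.19%). The share of peaks of this class was 4.28%, 0.671% and 1.31% in Lin- 1 to 3, 15.0%, 0% and 4.71% in Lin- 4 to 6, and 4.90%, 2.70%, 3.21% and 5.71% in CD11b+ 1 to 4, with overlap (exact permutation p = 0.4 for the biological libraries). In Lin- 5 it was 0 of 203 positions, which allows a share of up to 1.48%. The 3 most recurrent were in introns of *Rnf220*, a ubiquitin ligase gene, *Cdk6*, a cell cycle kinase gene, and *Fam107b*, each in 9 libraries. *Cdk6* had 16, 6 and 9 reads in Lin- 1 to 3 and 30 and 10 in CD11b+ 1 and 2.

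How many input peaks also stood in the eCLIP library of the same number differed by class. Of the input peaks, 46.0%, 45.5% and 51.5% overlapped a peak of their own eCLIP library, before the authors' input filter, in Lin- 1 to 3, and 38.9% and 30.0% did in CD11b+ 1 and 2. All Lin- libraries were above all CD11b+ ones, technical ones included (47.6% ± 3.3, SD, n = 3, against 34.4% ± 6.3, SD, n = 2, exact permutation p = 0.1, adjusted p = 0.286), and the difference of -13.2 percentage points was -8.75 without CD11b+ 2. By class the overlap was 95.05% to 100% for peaks in snoRNA genes, 83.3% to 100% for other small RNA genes and 51.25% to 94.1% for CA repeats in the 9 libraries that had any. It was 15.1% to 37.8% for 9-mer sites, 8.33% to 42.9% for peaks with rRNA or mitochondrial letters and 7.33% to 37.5% for peaks outside all classes. In the last class all Lin- libraries, at 17.6% or more, were above all CD11b+ libraries, at 11.2% or less.

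Seen from the eCLIP libraries, 3.89% to 22.3% of their peak positions overlapped a peak of their own input. The 9-mer sites were 0.328% to 0.801% of eCLIP positions, against 6.97% to 22.2% of input positions. CGTATGTCT sites took at most 1.54% of the reads in eCLIP peaks. According to the file headers, input and eCLIP libraries were deduplicated and called with different settings, so a difference in processing and one between the libraries cannot be told apart.

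By host gene, 3038 genes had an input peak in at least 1 library, and 148 of them (4.87%) had one in all 10. A gene had a peak in every CD11b+ library in 658 cases and in every Lin- library in 153, a number set by Lin- 5, since 372 genes had one in the other 5 Lin- libraries and 605 in the 3 biological ones. Of the 148, 42 (28.4%) had mostly 9-mer sites, 28 (18.9%) mostly snoRNA peaks, 17 (11.5%) mostly peaks in other small RNA genes and 57 (38.5%) mostly peaks outside all classes. Over the 3038 genes these shares were 8.79%, 13.8%, 3.62% and 67.4%. The median host gene in all 10 libraries spanned 43.3 kb, against 49.97 kb for all genes with an input peak.

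The genes with the most input peaks in all 10 libraries were *Gm42418* (169 peaks in all), *Tex14* (110), *Rcc1* (96), *Gm26917* (94), *Eif4a2* (93), *Cdk8* (88), *Cmss1* (72), *Peak1* (71), *Lars2* (70), *Snhg3* (69), *Gas5* (58) and *Rpl6* (57). In 6 of these, *Tex14*, *Rcc1*, *Eif4a2*, *Snhg3*, *Gas5* and *Rpl6*, 98.9% or more of the peaks were in snoRNA genes. *Eif4a2*, a translation initiation helicase, had 10, 8 and 11 peaks in Lin- 1 to 3 and 14 and 6 in CD11b+ 1 and 2. *Gas5*, a noncoding host of C/D box snoRNAs, had 8, 6 and 5 against 7 and 7. In both of these genes the groups overlapped.

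The number of peaks was higher in both biological CD11b+ libraries than in all 3 biological Lin- ones for 143 genes (4.71% of the 3038), and the reverse held for 34 genes (1.12%). With all libraries, 48 genes (1.58%) were higher in CD11b+ and 1 (0.0329%) in Lin-. At the same number of peaks per library, 95 genes were higher in CD11b+ and 38 in Lin-. CD11b+ libraries had more peaks, so a larger number in that direction is not by itself a result about these genes.

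Genes with more peaks in CD11b+ were long and intronic. Of the 143, 116 had mostly intronic peaks, against 2016 of the 3038, and the median gene spanned 91.6 kb against 49.97 kb. The 8 with the largest difference were *Celf2*, *Epha6*, *Slc16a10*, *Frmpd4*, *Atxn7l1*, *Ptprd*, *Erc2* and *Pebp4*. *Celf2*, an RNA-binding splicing regulator, had 1, 1 and 1 peaks in Lin- 1 to 3 and 3 and 5 in CD11b+ 1 and 2. *Epha6*, an ephrin receptor of neurons, had 1, 0 and 1 against 4 and 3, although its mean normalized count was 1.34 per kb in Lin- and 0.547 per kb in CD11b+ cells.

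*Ptprd*, a receptor phosphatase, had 0 peaks in every Lin- library and 1, 3, 0 and 2 in CD11b+ 1 to 4. *Slc16a10*, an amino acid transporter, and *Atxn7l1* had CA repeats only, with 2, 0 and 0 against 3 and 4 peaks and 0, 0 and 0 against 2 and 2. *Frmpd4*, a postsynaptic scaffold protein, had 0, 0 and 1 against 2 and 3. *Erc2*, a protein of the presynaptic active zone, had 1, 1 and 1 against 3 and 3, and *Pebp4* had 0, 0 and 0 against 2 and 2. None of these numbers was above 4.

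More peaks in CD11b+ inputs did not go with a higher mRNA level there. Of the 124 of the 143 genes listed in both RNA-seq tables, 26 (20.97%) had the higher mean in the CD11b+ table, and of all 2380 genes with an input peak listed in both, 521 (21.9%) did. The tables were normalized separately, so only these shares are compared.

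Genes with more peaks in Lin- were shorter and of mixed classes. Of the 34, 12 (35.3%) had mostly snoRNA peaks, 3 mostly peaks in other small RNA genes and 14 (41.2%) mostly peaks outside all classes, against 13.8%, 3.62% and 67.4% of the 3038 genes. By location, 16 (47.1%) had mostly peaks in noncoding exons and 15 (44.1%) mostly intronic ones, against 18.4% and 66.4% of the 3038. The median span was 9.62 kb, against 49.97 kb. The 8 with the largest difference were *Gm42418*, *Cdk8*, *Cmss1*, *Peak1*, *Rpl6*, ENSMUSG00000094480, *Cct6a* and *Gm47283*. *Gm42418* had 20, 40 and 20 peaks in Lin- 1 to 3 and 11 and 15 in CD11b+ 1 and 2. *Rpl6*, a ribosomal protein gene, had 9, 7 and 9 against 6 and 2, and *Cct6a*, a chaperonin subunit gene, 5, 4 and 3 against 2 and 1. *Gm47283* had 2, 1 and 3 against 0 in every CD11b+ library.

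Abundant mRNAs of the protein synthesis machinery had input peaks where they host snoRNAs. Of 91 cytoplasmic ribosomal protein genes, 30 had an input peak (28 in Lin- and 29 in CD11b+ inputs), and 559 of their 596 peaks (93.8%) were in snoRNA genes. These were 30.8% in Lin- and 31.9% in CD11b+ inputs. Over all genes, 6.15% of the Lin- table and 7.24% of the CD11b+ table had an input peak in that cell type. In the highest of 10 groups by mean, where the medians of the ribosomal protein genes lay, it was 15.8% and 14.3%. Of 79 translation factor genes, 13 had a peak (11, or 13.9%, in Lin- and 9, or 11.4%, in CD11b+ inputs), and 94.9% of these peaks were in snoRNA genes. The medians of these genes lay in group 9 of the 10, where 9.49% of all genes in Lin- and 9.23% in CD11b+ had a peak. *Rpl27a* had 6, 3 and 8 peaks in Lin- 1 to 3 and 9 and 2 in CD11b+ 1 and 2.

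*Eif5* had 2, 2 and 2 against 3 and 1, *Eif4a1* had 7, 4 and 5 against 4 and 3, and *Eef2*, the ribosomal translocation factor, had 3, 2 and 1 against 1 and 1. Of 18 noncoding snoRNA host genes 11 had a peak, 10 (55.6%) in Lin- and 11 (61.1%) in CD11b+ inputs, and *Snhg5* had 2 in each biological library. *Rmrp*, the RNA of a ribozyme of rRNA and mitochondrial RNA processing, was on this list and had 2, 2 and 3 against 4 and 2. *Rpph1*, the RNA of ribonuclease P, had 3, 1 and 2 against 4 and 3. Of 1356 annotated small RNA genes, 132 were themselves named as hosts, 121 (8.92%) in Lin- and 118 (8.70%) in CD11b+ inputs. Over all listed genes the shares were 6.15% and 7.24%.

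Other gene groups lay on both sides of these shares over all genes, 6.15% in Lin- and 7.24% in CD11b+. Of 33 genes of hnRNP and SR splicing factors 4 had an input peak in Lin- (12.1%) and 3 in CD11b+ libraries (9.09%). Of 70 replication-dependent histone genes it was 3 (4.29%) and 1 (1.43%), and of 12 cytoskeletal housekeeping genes 1 in each (8.33%). By median mean normalized count, the splicing factors (5794 and 3614) and cytoskeletal genes (14408 and 26005) stood in the highest of 10 groups by mean. In that group 15.8% of all genes in Lin- and 14.3% in CD11b+ had a peak. *Srsf10* had 2, 1 and 1 peaks against 1 and 2, mostly at 9-mer sites. *Actb* had 1 peak, in CD11b+ 2. Of 9 nuclear and imprinted long noncoding RNAs 4 had a peak in Lin- (44.4%) and 2 in CD11b+ libraries (22.2%). Among them was *Malat1* with 0, 1 and 0 in Lin- 1 to 3, 0 in Lin- 4 to 6 and 1, 6, 1 and 10 in CD11b+ 1 to 4. The biological groups of *Malat1* overlapped at 1 peak. *Neat1* had 1, 1 and 1 against 0 and 3. Of 9 loci that carry rRNA or satellite letters 7 had a peak in each cell type (77.8%), and *Gm10800*, a satellite locus, had 3, 4 and 2 against 7 and 3.

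Of the 6 lists of blood cell markers, 2 had members with an input peak. Of 14 progenitor markers 2 had one in Lin- (14.3%) and 3 in CD11b+ libraries (21.4%), against the 6.15% and 7.24% of all genes. These were *Meis1*, *Myb*, *Erg* and *Srgn*, with 1 or 2 peaks each. The median mean normalized count of the 14 was 9224 in Lin- and 2247 in CD11b+ cells, within the highest of 10 groups by mean. In that group 15.8% of all genes in Lin- and 14.3% in CD11b+ had a peak. Of 15 monocyte and macrophage markers only *Zeb2* had one, with 2, 1 and 0 peaks in Lin- 1 to 3 and 1 and 2 in CD11b+ 1 and 2. None of the 10 late neutrophil, 8 erythroid, 8 B cell and 8 T and NK cell markers had an input peak, although late neutrophil markers had a median of 4553 normalized counts per kb in the CD11b+ table.

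The genes of the MLL-Af4 fusion and *Igf2bp3* were examined for background of their own. *Igf2bp3* had 1 input peak, at a CA repeat in Lin- 4. *Kmt2a*, which encodes MLL, had 3, 1 and 5 peaks in Lin- 1 to 3, 2, 0 and 4 in Lin- 4 to 6, and 1 in each CD11b+ library. The biological groups of *Kmt2a* overlapped at 1. *Aff1*, which encodes AF4, had 1, 0 and 0 peaks in Lin- 1 to 3, 2, 0 and 5 in Lin- 4 to 6, and 0 in CD11b+ libraries. Of the *Kmt2a* peaks 68.4% were in coding exons and 31.6% in introns, and of the *Aff1* peaks 100% were in coding exons. In coding exons, reads of the endogenous genes and of the retroviral fusion cannot be told apart here.

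The share of genes with an input peak rose with the mean normalized count of the RNA-seq tables. When the genes of the Lin- table were split by their mean into 10 groups of like size, 2.07% of the lowest group and 15.8% of the highest had a peak in any Lin- library. In the CD11b+ table the shares were 4.06% and 14.3%. Genes with a peak in every library of the cell type were 0.456% of the Lin- and 2.02% of the CD11b+ table. Peaks in snoRNA genes went from 0.0377% of genes in the lowest to 3.16% in the highest group in Lin-, whereas 9-mer sites went from 0.414% to 1.66%. In Lin- cells the median gene spanned 8.35 kb in the lowest and 31.7 kb in the highest group, so gene length moved with the mean.

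**Figure D5:**
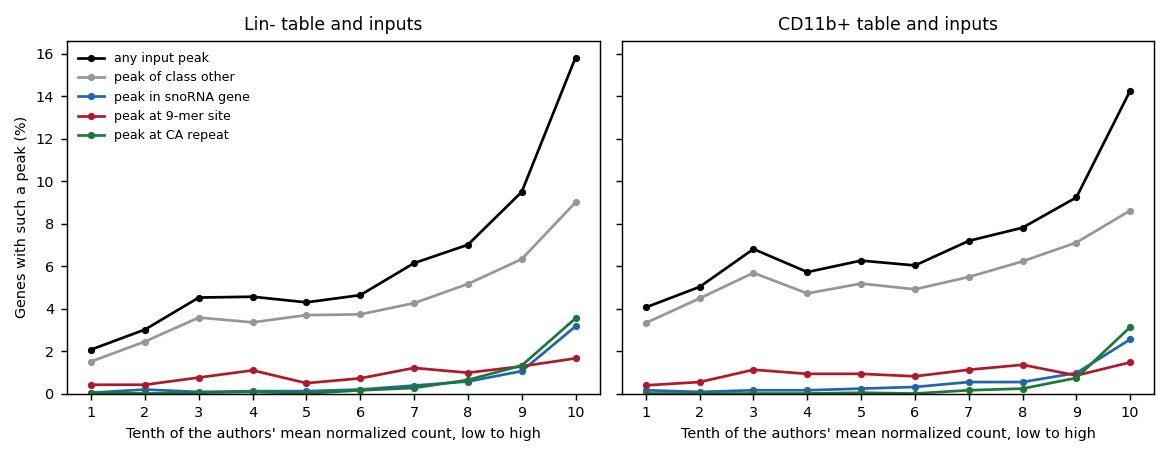
Percent of the genes, in each of 10 groups of like size ordered from low to high by the authors' mean normalized count, that had an input peak of the named class in any library of the same cell type (left Lin-, right CD11b+). The black line for any peak ends at 15.8% in Lin- and 14.3% in CD11b+, and the red line for 9-mer sites stays below 2%.

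Across genes the relation was weak. Spearman's rho between the number of input peaks and the mean normalized count was 0.0428 to 0.123 in the 6 Lin- libraries over 26560 genes, and 0.0643 to 0.0809 in the 4 CD11b+ libraries over 25887 genes. Per kb of exon it was 0.0296 to 0.103 and 0.0145 to 0.0289. With the span of the gene it was 0.0617 to 0.183 in Lin- and 0.170 to 0.227 in CD11b+, above the value for the mean in all libraries except Lin- 4. These correlations are across genes, which are not independent replicates, and most genes had 0 peaks.

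The hosts of each class differed in level. Hosts of snoRNA peaks had a median of 979 normalized counts per kb of exon in the Lin- and 429 in the CD11b+ table, and hosts of CA repeat peaks 702 and 613. Hosts of 9-mer sites had 92.5 and 35.7 per kb, against 35.2 and 30.0 for all listed genes. Hosts of 9-mer sites were long, with a median span of 139 kb in Lin- and 140 kb in CD11b+, and 24.7% and 28.9% of them had a mean normalized count under 10. Of CA repeat hosts this was 1.86% and 0%.

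High expression alone did not give an input peak. The listed genes with the highest means and no peak in any Lin- library were *mt-Co1*, a mitochondrial oxidase subunit (mean normalized count 113881), *Mpo*, the myeloperoxidase of granules (101212), *Eef1a1*, a translation elongation factor (94772), and *Gm10925* (94446). In CD11b+ they were *mt-Co1* (193256), *Eef1a1* (145234), *Mpo* (84102) and *Flna*, an actin crosslinker (80406). *Flna* had 1 peak in Lin- 6. Reads outside peaks were not analysed here, so the absence of a peak says nothing of the absence of reads.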

How the data were processed

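The members, gene lists and measures were chosen with earlier results of these data known. The authors mapped reads to mm10 and called peaks per library with CLIPper, and the submitters' processing notes name STAR 2.5.3a, Bowtie2 and DESeq2. The deposited files give for each peak its position, host gene ID, a number read here as its reads, and an unnamed value of at most 0.05 read as its p-value. Deduplication and peak calling of inputs was not set as for eCLIP, per the file headers. The deposited RNA-seq signal is the authors' mean normalized count per gene over both genotypes, made separately per cell type. The authors' fold changes were not used.

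Peaks were located with GENCODE M21 at their midpoint, in the order coding exon, 3′UTR, 5′UTR, noncoding exon, intron, and 98.1% of host IDs matched a symbol. A peak got the first class that applied, in the order 9-mer site, snoRNA gene, other small RNA gene, rRNA or mitochondrial letters (a shared run of 20 letters), CA repeat. A position listed under several IDs counted once, and under each ID for genes. Means were compared by exact two-sided permutation tests over 10 splits of the 3 Lin- and 2 CD11b+ biological libraries, with Benjamini-Hochberg adjustment over 20 measures. Whether each came from a separate culture or mouse was not given, so p-values measure the spread between these libraries.

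Named genes were the 12 in the most libraries, the 8 with the largest non-overlapping difference in each direction, up to 4 of each list, the 8 most recurrent regions, the 4 highest means without a peak in each cell type, and *Igf2bp3*, *Kmt2a* and *Aff1*. Some items that this rule includes are not reported here, and other genes were named after their values were seen. Python 3.11.15, pandas 2.3.3, NumPy 2.4.6, SciPy 1.17.1, pysam 0.24.0 and matplotlib 3.10.9 were used, and the scripts were tested on simulated data.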

Additional observations from a re-analysis of the deposited data

Results flagged for a closer look

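Within each cell type, 46 sets of library values were checked for a value far from the others, and 5 such values were found, where chance gives about 1 in 20. In Lin- 4, 15.0% of the peak positions were at CA repeats, above the other 5 Lin- libraries, and 21.9% of the positions were mostly in repeat-masked sequence. In Lin- 2 the median GC content of the peak windows was 50.6%, the highest of the Lin- libraries. In CD11b+ 1 the median peak had 7 reads, where the other 3 CD11b+ libraries had 6. In CD11b+ 4, 15.2% of the eCLIP peak positions overlapped a peak of the own input, above the other 3 CD11b+ libraries.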

How the results depend on the processing

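Beyond the values as reported, 188 alternative values were computed, of which 144 kept their direction and side of the threshold or stayed close. For the tested measures, settings with 3 Lin- and 2 CD11b+ libraries or fewer cannot pass 0.05. In these settings only the direction could change, so the count of 144 is no measure of stability. With all 10 libraries, and again without Lin- 5, the exact permutation p passed 0.05 for more measures: host genes differed by 514 (first setting only), intron share by 12.9 and 14.1 percentage points, overlap with the own eCLIP library by -18.9 and -18.9, snoRNA share of reads by -15.4 and -16.9, rRNA share by -2.3 and -2.0, and overlap within minus between cell types by 5.73 and 6.70. These p-values count technical libraries as separate and are not adjusted. Adjusted over the 20 measures, no p of the first setting passed 0.05, the lowest being 0.0635. The coding exon difference reversed to -0.856 without small RNA peaks and ranged from -0.162 to 0.673 when 1 biological library was left out, being -0.0339 without CD11b+ 2. The 3′UTR difference was 0.12 without 9-mer sites and ranged from -0.289 to 0.200, being 0.00115 without Lin- 3. The settings without 9-mer or small RNA peaks were chosen after seeing the data.

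Genes with a peak in every Lin- library were 605 with biological libraries and 372 without Lin- 5. Genes higher in CD11b+ were 89 at a p-value below 0.001, 95 at equal peak numbers, 48 with all libraries and 48 without Lin- 5, and 170 to 612 with 1 biological library left out (612 without CD11b+ 1, 403 without CD11b+ 2). Genes higher in Lin- were 1 with all libraries, 7 without Lin- 5, 19 without small RNA peaks, and 55 to 98 with 1 left out. The Spearman correlation with the mean, 0.0955 in Lin- and 0.0705 in CD11b+ as the mean of the biological libraries, was 0.0608 and 0.0199 per kb of exon, 0.0664 and 0.0997 with the other cell type's table, 0.0832 and 0.0590 at a p-value below 0.001, and 0.0719 and 0.0531 without small RNA peaks. In CD11b+ it was 0.0657 for genes with a mean of at least 10 and 0.0692 without 9-mer sites. The cause of these shifts was not tested, beyond the smaller or larger number of libraries and peaks that the settings imply.

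With the replicate number as a replicate block, the intron difference was 11.6 percentage points and that of the snoRNA share of reads -13.5. This setting used 4 pairs of same-numbered libraries, technical ones included. Its exact test over the signs of the paired differences cannot give a p below 0.125. A call could thus change only by direction, and no direction changed. Deviations of same-numbered libraries correlated at -0.0417 to 0.0214, and those of libraries with different numbers at -0.0894 to 0.0475. Peak numbers per gene were small, so these values cannot decide whether the numbers pair the samples. The 3 against 2 design cannot reach a p below 0.1, and reads outside peaks are unknown.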
